A study of Mus musculus with 8 samples.

Results

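The luminal secretory product genes examined here were Ltf, Lcn2, Wfdc18, Folr1, Spp1, Mfge8, Muc1 and Spdef, 8 of the 21938 protein-coding genes annotated in the mouse genome (mm10, GENCODE release M21). They were taken from a fixed list of gene names, and the measurement at each gene was the set of peaks of histone H3 acetylated at lysine 27 (H3K27ac) over the gene body and 50 kb on either side, called the window below. All 8 genes had peaks in their windows in every tumor. The genes had been chosen by name with peak positions of these same tumors in both groups known, so these values took part in the choice, and the contrast between the groups is described for these genes and was not tested.

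H3K27ac was profiled by chromatin immunoprecipitation and sequencing in 4 breast tumors, 2 in each group, taken at terminal size. All mice were on the Balb/c background, carried the PyMT oncogene and the Rag1 knockout (PyMT;Rag1KO), and had been given wild-type CD4+ T cells when 4 weeks old. The test mice additionally carried K14-TSLPtg, and the control mice did not. The comparison asked how acetylation of breast tumor chromatin differed where thymic stromal lymphopoietin (TSLP) was overexpressed in mice given CD4+ T cells. PyMT here is an oncogene expressed in mammary epithelium, the Rag1 knockout removes the host's own T and B cells, and the keratin 14 promoter is active in basal epithelial cells, those of the skin among them. The titles of the control samples say tumor and those of the test samples say cyst, and the labels give neither histological grade nor cell make-up, so any such difference cannot be told apart from that of the genotype.

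Luminal cells of the mammary alveolus make and export the components of milk, which besides caseins and fat include iron-binding defence proteins, protease inhibitors of the whey acidic protein family, vitamin-binding proteins and the apical membrane that wraps each fat globule. Acetylation of H3K27 marks active promoters and enhancers, and genes that a cell type expresses strongly often lie in wide acetylated domains. Several of the 8 genes are also used by other cells: Ltf and Lcn2 proteins are stored in neutrophil granules, and macrophages make osteopontin from Spp1.

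The promoter sequences shown first belong to genes whose promoters are described below, and are those of RefSeq on GRCm38.p6, 300 bases each, in the direction of transcription. They and the regions shown after them come from the reference genome, whose strain is not Balb/c. 7 of the 8 genes matched an entry there, with 8 sequences since Spp1 has a pair. The Lcn2 promoter (chr2:32387690-32387989, minus strand) and the Ltf promoter (chr9:111019042-111019341, plus strand) lay wholly within peaks in all 4 tumors, and capitals mark their matches to the C/EBP letters.
Lcn2 promoter: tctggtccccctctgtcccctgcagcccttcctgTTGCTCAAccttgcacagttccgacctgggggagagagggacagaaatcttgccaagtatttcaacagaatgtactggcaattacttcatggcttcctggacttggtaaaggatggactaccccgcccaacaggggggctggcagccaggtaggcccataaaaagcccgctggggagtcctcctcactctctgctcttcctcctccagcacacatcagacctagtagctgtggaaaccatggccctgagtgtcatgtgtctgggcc
Ltf promoter: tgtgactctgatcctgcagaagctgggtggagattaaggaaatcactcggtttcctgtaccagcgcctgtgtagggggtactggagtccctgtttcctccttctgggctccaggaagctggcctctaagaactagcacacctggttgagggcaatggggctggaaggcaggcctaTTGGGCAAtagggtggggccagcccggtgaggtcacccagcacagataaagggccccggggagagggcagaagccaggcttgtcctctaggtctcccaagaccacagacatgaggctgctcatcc
The match began at position -216 in Lcn2 and at position -75 in Ltf relative to the RefSeq start. The letters searched on both strands were TTCNNNGAA for STAT5, TTGCNNAA for C/EBP, TGANTCA for AP-1 and CCGGAA for ETS factors, together with the kappa B consensus of NF-kB. At least 1 of them occurred in 5 of the 8 promoter sequences, where 36.4% of all 32851 RefSeq promoters held at least 1, and C/EBP letters were present in 10.8% of all promoters. In the Spdef promoter (chr17:27728902-27729201, minus strand) and the Mfge8 promoter (chr7:79149011-79149310, minus strand) the peaks of some tumors ended inside the sequence. These were control 1, control 2 and test 2 at Spdef, and test 2 alone at Mfge8. Capitals in both sequences mark the bases that lay in peaks of all 4 tumors.
Spdef promoter: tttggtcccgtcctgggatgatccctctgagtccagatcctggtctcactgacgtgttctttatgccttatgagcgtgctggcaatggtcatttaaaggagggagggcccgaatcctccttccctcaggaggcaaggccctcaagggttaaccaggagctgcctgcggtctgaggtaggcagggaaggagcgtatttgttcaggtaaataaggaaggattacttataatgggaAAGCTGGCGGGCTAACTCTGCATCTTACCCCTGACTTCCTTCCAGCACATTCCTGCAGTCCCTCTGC
Mfge8 promoter: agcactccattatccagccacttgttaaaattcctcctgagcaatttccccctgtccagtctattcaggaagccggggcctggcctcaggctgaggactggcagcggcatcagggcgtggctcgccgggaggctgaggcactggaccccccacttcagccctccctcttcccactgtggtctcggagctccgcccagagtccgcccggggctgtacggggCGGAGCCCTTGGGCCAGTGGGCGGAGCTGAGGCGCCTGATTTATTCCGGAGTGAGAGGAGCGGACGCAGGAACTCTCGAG
Of the 300 bases at Spdef, 123 lay in a peak in control 1 and 172 in control 2, against 300 in test 1 and 67 in test 2. At Mfge8 the same count was 300 in control 1, control 2 and test 1 and 80 in test 2. Acetylation thus reached the upstream side of these promoters least far in test 2.

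The next sequences are those of regions near the 8 genes with a peak in each tumor of a single genotype, given on the plus strand of GRCm38 as the central 300 bases, or whole where shorter, with matches to the same letters in capitals. A pair near Folr1 and 1 near Lcn2 were found in the test tumors alone.
Folr1 intragenic region, chr7:101868182-101868481: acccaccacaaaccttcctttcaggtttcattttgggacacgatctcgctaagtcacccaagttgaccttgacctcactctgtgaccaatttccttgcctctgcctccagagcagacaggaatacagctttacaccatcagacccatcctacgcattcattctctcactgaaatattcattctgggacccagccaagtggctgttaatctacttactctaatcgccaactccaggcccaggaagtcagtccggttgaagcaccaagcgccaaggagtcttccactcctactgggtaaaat
Folr1 upstream region, chr7:101882550-101882849: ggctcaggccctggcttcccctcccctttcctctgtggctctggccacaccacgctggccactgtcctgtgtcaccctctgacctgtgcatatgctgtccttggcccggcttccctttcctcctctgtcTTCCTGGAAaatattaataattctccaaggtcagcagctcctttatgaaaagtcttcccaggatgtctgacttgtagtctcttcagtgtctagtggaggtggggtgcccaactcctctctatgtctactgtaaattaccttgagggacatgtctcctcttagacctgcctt
Lcn2 upstream region, chr2:32428043-32428342: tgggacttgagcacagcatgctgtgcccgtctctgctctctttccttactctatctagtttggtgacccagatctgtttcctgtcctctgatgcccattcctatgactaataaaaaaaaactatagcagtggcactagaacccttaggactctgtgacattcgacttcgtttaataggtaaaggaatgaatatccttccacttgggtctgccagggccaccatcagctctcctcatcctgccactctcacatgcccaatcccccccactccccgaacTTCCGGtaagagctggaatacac
A region near Ltf and a pair near Muc1 were found in the control tumors alone, and the Ltf region and the Muc1 region that held matches are shown.
Ltf downstream region, chr9:111059861-111060160: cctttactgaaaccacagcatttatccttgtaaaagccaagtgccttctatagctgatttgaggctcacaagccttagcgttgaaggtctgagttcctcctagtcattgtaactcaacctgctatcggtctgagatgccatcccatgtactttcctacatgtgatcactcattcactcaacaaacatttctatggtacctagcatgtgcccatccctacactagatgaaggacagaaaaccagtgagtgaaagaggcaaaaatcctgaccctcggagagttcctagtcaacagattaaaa
Muc1 downstream region, chr3:89268399-89268629: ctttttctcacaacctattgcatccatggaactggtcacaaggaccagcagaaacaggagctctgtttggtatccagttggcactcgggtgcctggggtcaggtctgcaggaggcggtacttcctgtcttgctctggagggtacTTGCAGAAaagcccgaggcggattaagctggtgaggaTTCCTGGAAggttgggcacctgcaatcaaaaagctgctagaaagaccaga
STAT5 letters occurred in the Folr1 upstream region and, together with C/EBP letters, in the Muc1 downstream region, and ETS letters occurred in the Lcn2 upstream region. The Folr1 intragenic region, the Ltf region and the other Muc1 region held none of the 5. Among all 91238 acetylated regions of the 4 tumors, 34.2% held at least 1 of the 5 within their central 300 bases and 9.98% held STAT5 letters, with ETS letters in 6.35%. The first of these shares was 27.5% and the second 7.67% within the central 231 bases.

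Over the whole genome the tumors had between 59762 and 69861 peaks, which covered between 2.36% and 2.68% of the genome, with test 2 lowest in both. The lists give positions and widths alone, so read depth is unknown, and a more deeply sequenced tumor can show more and wider peaks. The tissue label was checked against 10 luminal epithelial markers, among them Krt8, Krt18 and Epcam. All 10 had a promoter peak in every tumor, the state of 49.6% of all protein-coding genes. Of 12 genes of hormone-sensing luminal cells, however, 6 had no promoter peak in any tumor. In tissue of mixed cells, fewer cells of a type cannot be told apart from less acetylation per cell.

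The windows of the 8 genes were rich in acetylation in both groups. Their mean window coverage, the percent of bases in peaks, was 17.2% in control 1 and 15.3% in control 2, against 17.4% in test 1 and 15.7% in test 2, and the groups overlapped. Divided by the share of the genome in peaks, this was a 6.40-fold and 6.16-fold excess in the control tumors and a 6.50-fold and 6.66-fold excess in the test tumors. Against the mean window of all genes with coverage, which had 6.84%, 6.75%, 7.23% and 6.12%, the excess was 2.51-fold, 2.27-fold, 2.40-fold and 2.57-fold in control 1, control 2, test 1 and test 2. Averaged over the 4 tumors, coverage ran from 27.3% ± 1.23 (SD, n = 4) for Lcn2 through Muc1, Spp1, Folr1, Wfdc18, Ltf and Spdef to 4.86% ± 1.46 (SD, n = 4) for Mfge8. In that order the ranges over tumors of neighbouring genes overlapped, except between Ltf and Spdef. Lcn2 stood at percentile 98.4 of the 18693 genes with a peak in their window and Muc1 at percentile 97.3, whereas Mfge8 at percentile 51.5 was close to the middle of all genes.

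**Figure D1:**
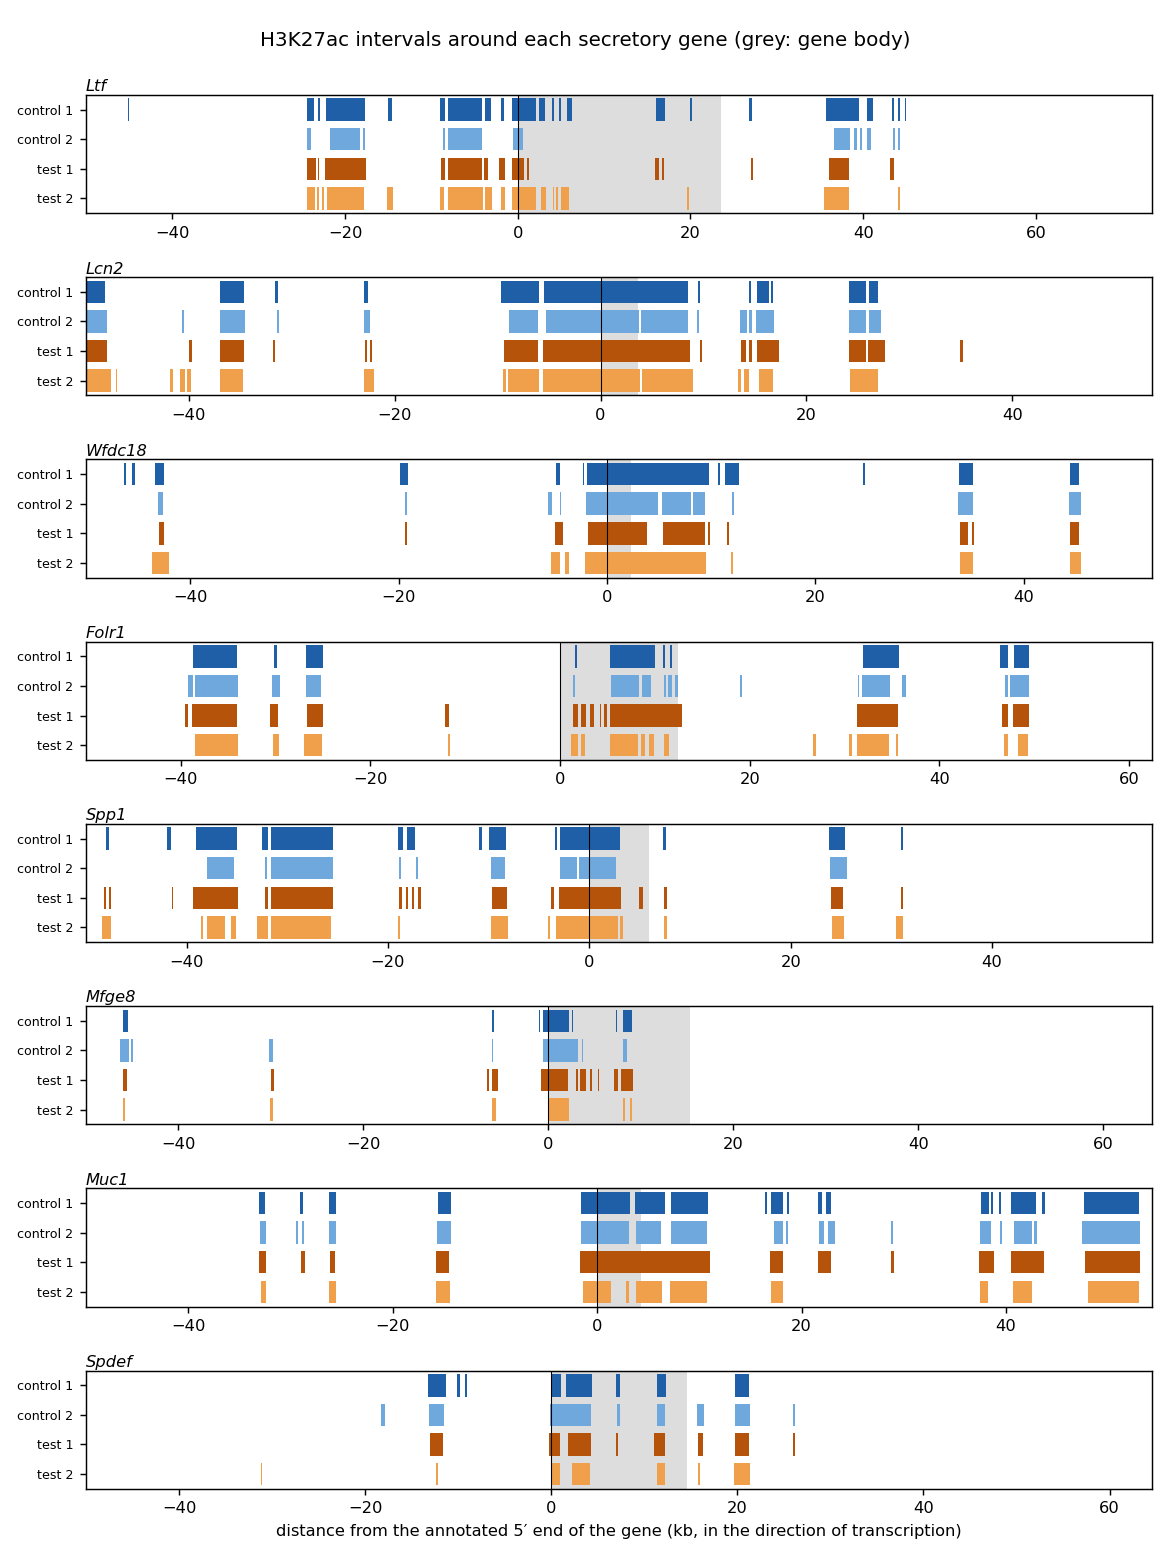
Intervals of H3K27ac in each tumor (rows) around each of the 8 genes, against distance from the annotated 5′ end in kb, with the gene body in grey. Lcn2 and Wfdc18 lay in peaks from end to end in every tumor, while no interval lay over the annotated 5′ end of Folr1.

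Ltf encodes lactoferrin, the iron-binding glycoprotein of milk and neutrophil granules, and lies at chr9:111019271-111042767 on the plus strand. Its window coverage was 18.5% in control 1 and 10.4% in control 2, against 13.3% in test 1 and 16.2% in test 2. The highest and the lowest tumor were both controls, so the groups overlapped, with means of 14.5% ± 5.66 in control and 14.8% ± 2.07 in test tumors (SD, n = 2 each). The difference of 0.32 percentage points became 5.82 within 10 kb of the start, where the groups also overlapped. With 1 tumor left out it was 4.33 without control 1, -3.68 without control 2, 1.79 without test 1 and -1.14 without test 2, so its sign depended on the tumors used. Within the gene body the spread was wider, with 20.6% in control 1 and 17.9% in test 2 against 2.73% in control 2 and 6.19% in test 1. The promoter interval was 2816 bp wide in control 1 and 2756 bp in test 2, and 1244 bp in control 2 and 1304 bp in test 1. Acetylation into the body of Ltf therefore divided the tumors across the groups, with 1 tumor of each genotype on either side. Upstream of the gene, all 4 tumors shared an intergenic domain centred at -19.96 kb, covered over 4474, 3720, 4679 and 4286 bp in control 1, control 2, test 1 and test 2, and another at -6.06 kb, covered over 4001, 3918, 3948 and 4034 bp. These intervals varied less between tumors than those over the gene. On the downstream side, coverage was 11.01% in control 1 and 6.71% in control 2, against 5.90% in test 1 and 6.02% in test 2, higher in both control tumors, as for 13.1% of genes with coverage on that side (16.9% were higher in both test tumors). That side held the control-only region at chr9:111059666-111060356, covered over 691 bp in control 1 and 426 bp in control 2, which lay 40395 bp from the start of Ltf and 2147 bp from that of Ccrl2, a chemerin-binding receptor of myeloid cells.

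Lcn2 encodes lipocalin 2, which binds bacterial iron carriers, and lies at chr2:32384633-32388252 on the minus strand. Its window coverage was 26.0% in control 1 and 26.5% in control 2, against 28.4% in test 1 and 28.3% in test 2. Both test tumors were above both control tumors, with means of 26.2% ± 0.407 in control and 28.3% ± 0.0641 in test tumors (SD, n = 2 each), a difference of 2.09 percentage points. Of all genes with coverage, 17.3% were higher in both test tumors and 13.0% in both control tumors. When coverage was divided by each tumor's share of the genome in peaks, the groups no longer kept apart at Lcn2, nor did they within 10 kb of the start. The difference was then 2.87 percentage points with the division and 2.61 within 10 kb. The gene sat inside the widest acetylated region of the 8 windows, 14598 bp from end to end, and only 0.0986% of all regions were at least as wide. Within this domain 13995 bp were in peaks in control 1, 13576 bp in control 2, 14356 bp in test 1 and 14303 bp in test 2. The domain was thus almost fully acetylated in every tumor and also reached the start of the neighbouring 1110008P14Rik. Window coverage upstream of Lcn2 was 28.2%, 27.03%, 28.4% and 31.5% in the same order of tumors, higher in both test tumors, as for 18.8% of genes with coverage upstream. The upstream side held the test-only region at chr2:32427982-32428404 within Slc25a25, 39730 bp from the start of Lcn2, covered over 227 bp in test 1 and 355 bp in test 2, with Naif1 as the nearest start. The number of peaks in the window was 12 in control 1 and 14 in control 2, against 15 in test 1 and 15 in test 2, and 5.56% of all genes had more peaks in both test tumors.

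Wfdc18 encodes a small secreted protein of the whey acidic protein family and lies at chr11:83709015-83711348 on the plus strand. Its window coverage was 18.0% in control 1 and 14.4% in control 2, against 13.1% in test 1 and 16.6% in test 2, and the groups overlapped. The difference of -1.35 percentage points ranged from -3.14 without control 2 to 0.45 without control 1. The gene lay in peaks from end to end in all 4 tumors, inside a region 11952 bp wide. The promoter interval measured 11784 bp in control 1 and 11625 bp in test 2, and 6966 bp in control 2 and 5707 bp in test 1, where the same domain was broken into more than 1 interval. Control 1 and test 2 were thus the wide tumors at Wfdc18, as they were at the Ltf promoter. Wfdc17, a related gene 5.02 kb upstream, had a promoter interval of 410 bp in control 1 and 346 bp in control 2 against 710 bp in test 1 and 896 bp in test 2. The interval over its promoter was wider in both test tumors, as for 22.7% of all genes with a promoter interval in at least 1 tumor. A region 12.01 kb downstream of the Wfdc18 start was covered over 1284 bp in control 1 and over 230, 221 and 176 bp in control 2, test 1 and test 2, so control 1 alone stood out there.

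**Figure D2:**
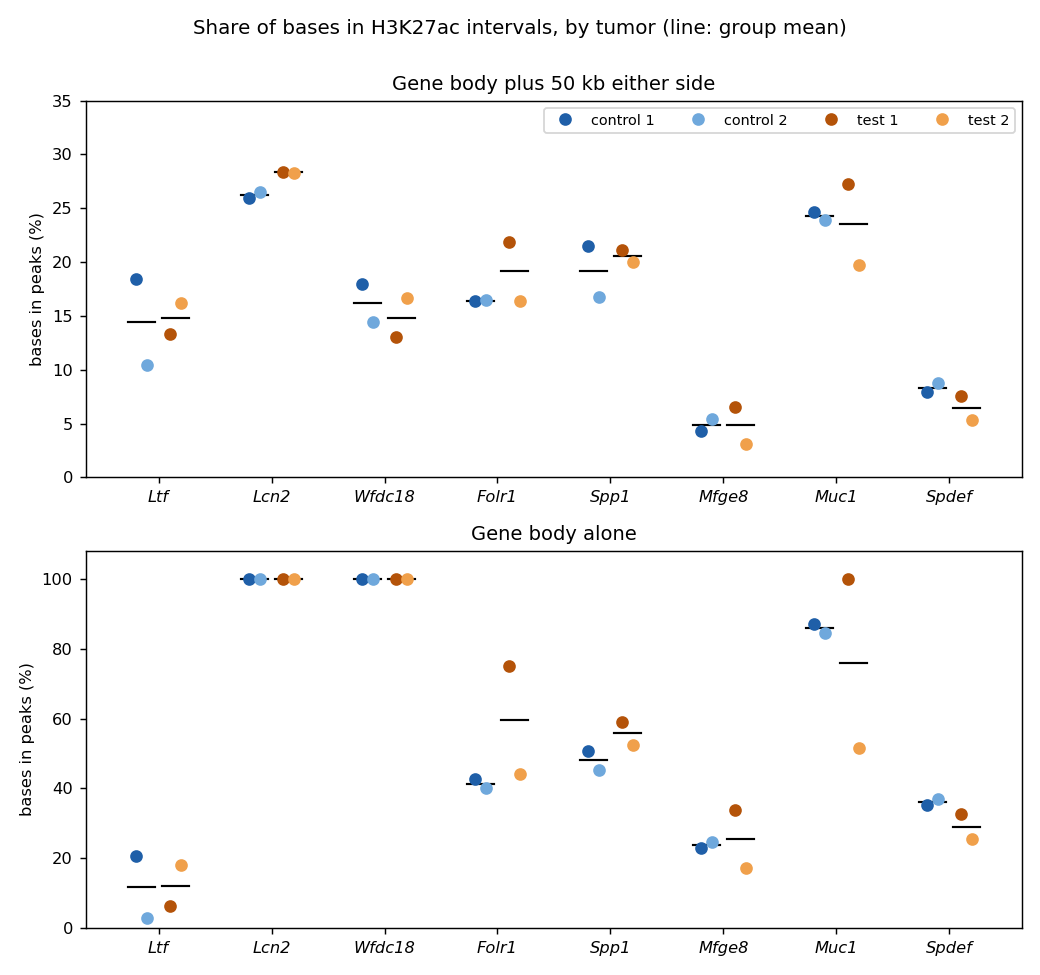
Percent of bases in H3K27ac intervals for each gene and tumor, over the gene body plus 50 kb either side (top) and over the gene body alone (bottom), with lines at the group means. Over the window the groups kept apart at Lcn2 and Spdef alone, and over the gene body at Folr1, Spp1 and Spdef.

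Folr1 encodes folate receptor alpha, a membrane-anchored folate-binding protein also released into milk, and lies at chr7:101858331-101870788 on the minus strand. Its window coverage was 16.4% in control 1, control 2 and test 2 alike and 21.9% in test 1. The groups overlapped and the difference of 2.73 percentage points rested on test 1, without which it was 0.0120. It was 6.61 with 20 kb on either side of the gene and 7.19 within 10 kb of the start, and Folr1 was higher in both test tumors under 5 of the 7 alternatives that kept all tumors, the other ones being 100 kb on either side and peaks of at least 1 kb. Over the gene body coverage was 42.6% in control 1 and 40.1% in control 2, against 75.0% in test 1 and 44.2% in test 2, higher in both test tumors, as for 18.0% of genes with coverage of the gene body. The annotated 5′ end of Folr1 had no promoter peak within 1 kb in any tumor. A region 1179 bp inside the gene, chr7:101868868-101869609, was present in all of them and covered over 197 bp in control 1 and 223 bp in control 2, against 582 bp in test 1 and 742 bp in test 2. Further annotated transcript starts of Folr1 lie in this region, which was wider in both test tumors. A test-only region followed at chr7:101868080-101868583, 2205 bp inside the gene, with 483 bp in test 1 and 461 bp in test 2. The other test-only region, chr7:101882434-101882965 in an intron of Anapc15, lay 11646 bp upstream of the annotated Folr1 start and had 442 bp in test 1 and 161 bp in test 2. Folr1 was the gene with the most test-only regions in its window, yet its widest region, 7572 bp, spanned the start of the overlapping Anapc15, a subunit of the anaphase-promoting complex, and was filled from end to end in test 1 alone. The Folr1 and Anapc15 genes overlap, and an interval over both cannot be assigned to either.

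Spp1 encodes osteopontin, a secreted phosphoprotein of milk, bone and macrophages, and lies at chr5:104435118-104441050 on the plus strand. The Spp1 window had a coverage of 21.5% in control 1 and 16.8% in control 2, against 21.1% in test 1 and 20.03% in test 2. Control 2 was the low tumor and the groups overlapped, with a difference of 1.43 percentage points that was -0.94 without control 2. Over the gene body both test tumors were higher, with 58.9% and 52.5% against 50.8% and 45.2% in the control tumors, as for 18.0% of genes with coverage of the gene body. The promoter interval was 6149 bp in test 1 and 6147 bp in test 2, wider than the 5884 bp of control 1 and the 3676 bp of control 2. Most of the acetylation of this window lay upstream, where an intergenic domain centred at -28.5 kb was covered over 6233, 6127, 6192 and 6014 bp and differed little between the 4 tumors. Spp1 had few coding neighbours, and its start was the nearest coding one for 17 of the 19 regions of its window.

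Mfge8 encodes lactadherin, a phosphatidylserine-binding protein of the milk fat globule membrane, and lies at chr7:79133768-79149060 on the minus strand. Its window coverage was 4.34% in control 1 and 5.40% in control 2, against 6.55% in test 1 and 3.13% in test 2. The highest and the lowest values were both test tumors, and the difference of the means was -0.030 percentage points. It was -0.56 without control 1, 0.50 without control 2, -1.74 without test 1 and 1.68 without test 2, so it had no stable sign. The promoter interval was 2780 bp in control 1 and 3727 bp in control 2, against 2926 bp in test 1 and 2246 bp in test 2, and the side downstream of the gene held no peak in any tumor. All 12 regions of this window had the Mfge8 start as the nearest coding one. A small region at -5.83 kb was covered over 179 and 193 bp in the control tumors, against 585 and 419 bp in the test tumors, while one at -45.8 kb was covered over 576 and 1021 bp in the control tumors, against 427 and 229 bp in the test tumors, the opposite order.

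Muc1 encodes a large mucin of the apical luminal membrane and lies at chr3:89229057-89233381 on the plus strand. Coverage of its window was 24.7% in control 1 and 23.9% in control 2, against 27.2% in test 1 and 19.8% in test 2. The test tumors lay on either side of the control tumors, and the difference of -0.81 percentage points was -4.53 without test 1 and 2.91 without test 2. The gene body was covered over 87.2% and 84.4% in the control tumors, wholly in test 1 and over 51.7% in test 2. In test 1 a single interval of 12760 bp ran over the Muc1 promoter, against 4739 bp in control 1, 4684 bp in control 2 and 2802 bp in test 2. The window had 18 peaks in each control tumor and 11 in each test tumor, and 15.8% of all genes had more peaks in both control tumors. The same count of 11 came from opposite arrangements, since test 1 had the highest window coverage of the 4 tumors and test 2 the lowest. A pair of control-only regions lay downstream, one of 324 bp in an intron of Krtcap2 (chr3:89247497-89247820), nearest to the start of Trim46, and one of 231 bp within Slc50a1 (chr3:89268399-89268629). They were 18440 and 39342 bp from the Muc1 start, in the window with the most coding neighbours (10). The promoter interval of Muc1 also reached the promoter of Mtx1.

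Spdef encodes an ETS-family transcription factor of goblet and other secretory cells and lies at chr17:27714352-27728955 on the minus strand. Coverage of the Spdef window was 7.92% in control 1 and 8.77% in control 2, against 7.61% in test 1 and 5.30% in test 2. Both control tumors were above both test tumors, with means of 8.35% ± 0.601 in control and 6.45% ± 1.63 in test tumors (SD, n = 2 each) and a difference of -1.89 percentage points, which was -0.74 without test 2 and -3.05 without test 1. The gene body followed the same order, with 35.4% and 37.0% in the control tumors, against 32.7% and 25.3% in the test tumors, as for 13.4% of genes with coverage of the gene body. Upstream coverage was 4.84% and 4.09% in the control tumors, against 3.28% and 0.85% in the test tumors, an order shared by 12.3% of genes with coverage upstream. An intergenic region at -12.3 kb was covered over 1893 bp in control 1 and 1559 bp in control 2, against 1349 bp in test 1 and 216 bp in test 2. Test 2 was the tumor in which both the upstream region and the promoter interval were narrowest, the latter with 942 bp against 1074 bp in control 1, 4399 bp in control 2 and 1248 bp in test 1. Spdef was the sole gene of the 8 whose window was less covered in both test tumors. Its difference was -4.15 percentage points with 20 kb on either side of the gene and -6.38 within 10 kb of the start. With 100 kb on either side it turned to 0.22 and the groups overlapped. Peaks of at least 1 kb alone gave a difference of -1.43, again with overlapping groups.

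**Figure D3:**
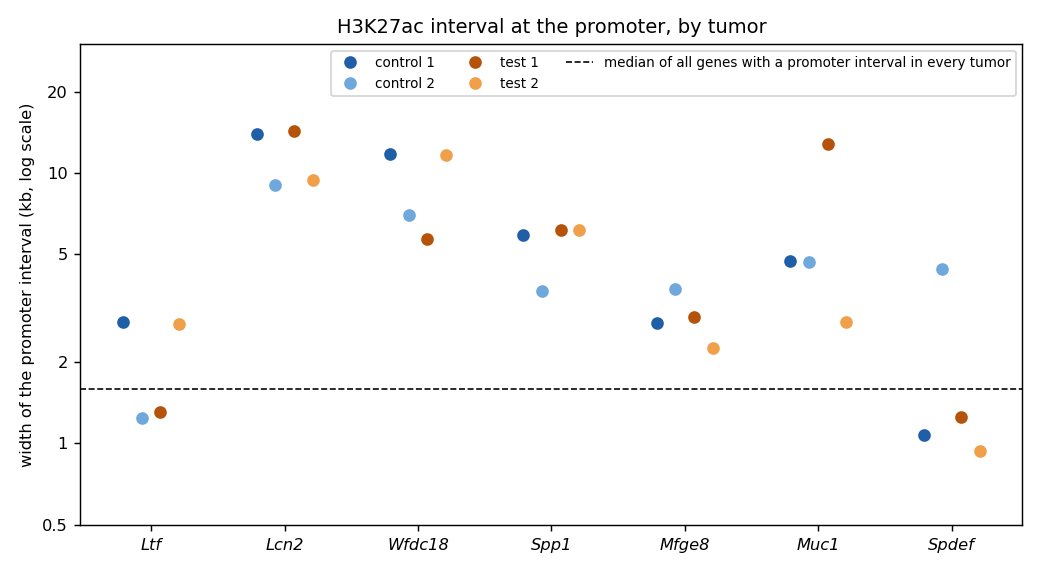
Width of the widest H3K27ac interval within 1 kb of the annotated start in each tumor, in kb on a log scale, for the 7 genes with such an interval, with a dashed line at the median of all genes with one in every tumor. Control 1 and test 2 are the wide tumors at both Ltf and Wfdc18, and all 4 tumors are far above the median at Lcn2.

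Across the 8 genes, 7 had a promoter peak in all 4 tumors, the state of 49.6% of all protein-coding genes, and none had one in both control tumors only (0.533% of all genes) or both test tumors only (0.301%). Averaged over tumors, the promoter intervals were 11700.0 bp ± 2866 for Lcn2, 9020 bp ± 3142 for Wfdc18, 6246 bp ± 4435 for Muc1 and 5464 bp ± 1198 for Spp1 (SD, n = 4 each). The median over the 10874 genes with a promoter peak in every tumor was 1586 bp. Of these genes, 0.441% had intervals at least as wide as Lcn2, 0.874% as Wfdc18, 2.501% as Muc1 and 3.59% as Spp1, whereas at Mfge8, Ltf and Spdef this share was 15.8%, 33.3% and 37.0%. The mean was raised by test 1 at Muc1 (12760 bp) and by control 2 at Spdef (4399 bp). In the remaining tumors Spdef was below the median of 1586 bp. Spp1 was the sole gene of the 7 whose promoter interval was wider in both test tumors, against 22.7% of genes.

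The windows of the 8 genes held 128 acetylated regions in all, counted after the peaks of the 4 tumors had been joined. Of these, 50 (39.1%) were present in 4 tumors, 18 in 3, 18 in 2 and 42 in 1, and 38.1% of all regions in the genome were present in 4 tumors. By length, 83.0% of the region bases in the windows belonged to the 50 shared regions, and over the whole genome this share was 75.2%. Fewer than 50% of the regions were thus found in every tumor, and those that were made up most of the acetylated length. Control-only and test-only regions numbered 3 each, where 3.41% of all regions were control-only and 1.47% test-only. Ltf and Muc1 had control-only regions in their windows, as had 22.3% of all genes, and Lcn2 and Folr1 had test-only regions, as had 12.2% of all genes. Of the 50 shared regions, 7 covered more bases in both test tumors and 8 in both control tumors, and over all shared regions of the genome these shares were 19.1% and 13.3%.

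**Figure D4:**
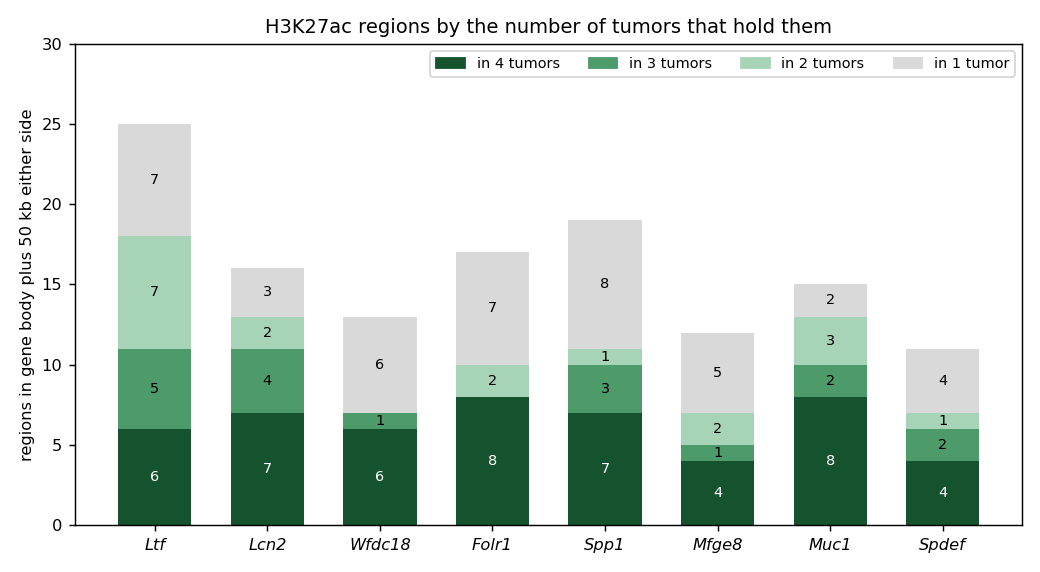
Number of acetylated regions in the window of each gene, split by how many of the 4 tumors held them. Ltf had the most regions, 25, of which 6 were in every tumor, and Folr1 and Muc1 had the most regions in every tumor, 8 each.

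The windows overlapped 34 other coding genes, so part of their acetylation belongs to neighbours. Of the 27 with a start inside a window, 17 had a promoter peak in every tumor. Besides Wfdc17, the neighbours whose promoter intervals kept the groups apart were Pkd2 beside Spp1, with 1587 and 1633 bp in the control tumors, against 1251 and 1228 bp in the test tumors, and Efna1 beside Muc1, with 5402, 5596, 5335 and 4954 bp in the same order. Both were wider in the control tumors, as for 10.3% of all genes with a promoter interval in at least 1 tumor.

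Of the 8 genes, 1 (Lcn2) had higher coverage in both test tumors and 1 (Spdef) in both control tumors, against the background of 17.3% and 13.0% of genes, and the median of their differences was 0.15 percentage points where that of all genes was 0.019. Among 44 other genes of secretory luminal cells, 3 were higher in both test tumors and 5 in both control tumors, with a median of 0.24. The higher ones in test were Muc15, Ehf and Kit. Those higher in control were the protease inhibitor genes Wfdc2 and Slpi, with Agr2, Clu and Aldh1a3. Muc15, a membrane mucin of milk fat globules, had 11.6%, 7.53%, 14.7% and 18.7% in control 1, control 2, test 1 and test 2, a difference of 7.14. Wfdc2 had 10.6%, 8.58%, 5.57% and 3.04%, and Slpi 16.2%, 15.2%, 13.8% and 11.2%. The inhibitor genes Wfdc2 and Slpi were therefore lower in both test tumors, while the groups overlapped at Wfdc18 and Wfdc3 of the same protein family. Wfdc3 had 18.0%, 18.6%, 22.6% and 18.3%, a difference of 2.13. The genes whose coverage over the 4 tumors lay nearest to the mean of the 8 were Aqp5, a water channel of secretory epithelia, at a Euclidean distance of 3.07 percentage points, Creb3l1 at 3.81 and Elf3 at 4.35.

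Other lists of milk-related genes showed the following. Of 8 casein and milk protein genes, 4 of them also on the list of other secretory luminal genes, the groups overlapped at every one, and the median difference was 1.09 percentage points. No promoter peak was present in any tumor at 5 of the 8. The windows of Csn1s1 and Csn2 overlap for most of their length, as do those of Csn1s2a and Csn1s2b. Of 22 genes of milk lipid synthesis, 4 were higher in both test tumors and 3 in both control tumors (median -0.27). Of 12 regulators and products of hormone-sensing luminal cells, 10 had coverage, of which 1 was higher in both test tumors and 1 in both control tumors (median 0.065). Foxa1 and Cited1 had no peak in their windows in any tumor, and 6 of the 12 had no promoter peak in any. Of the 10 luminal epithelial markers, 2 were higher in both test tumors and none in both control tumors (median 0.58).

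Markers of other cells that a breast tumor can hold were counted in the same way. Of 15 macrophage markers with coverage, none was higher in both test tumors and 8 were higher in both control tumors (median -1.54), 3 of which, C1qa, C1qb and C1qc, share a window. The mean coverage of the macrophage markers was 8.75% and 8.09% in the control tumors, against 7.80% and 5.42% in the test tumors, and Marco had no peak in any tumor. Of 12 neutrophil markers with coverage, none was higher in test and 3 in control (median -0.41), with means of 5.32% and 5.58% in control and 5.83% and 3.93% in test tumors. S100a8 had a promoter peak in every tumor, whereas Ly6g and Retnlg had no peak in their windows in any tumor and 11 of the 14 neutrophil markers had no promoter peak in any. Endothelial markers were higher in both control tumors at 7 of 12 (median -0.44), fibroblast markers at 4 of 11 with 1 higher in test (median -0.59), myoepithelial markers at 3 of 10 (median -0.61) and adipocyte markers at 1 of 8 with 1 higher in test (median -0.24). T cell markers were higher in both test tumors at 5 of 11 and in both control tumors at 1 (median 0.48). The windows of Cd3e and Cd3d, both among the 5, overlap for most of their length, and 8 of the 11 T cell markers had no promoter peak in any tumor. Promoter peaks of the fibroblast list numbered 5, 4, 4 and 0 in control 1, control 2, test 1 and test 2, those of the endothelial list 8, 6, 4 and 0, and those of the myoepithelial list 7, 3, 5 and 0. Those of the macrophage list numbered 11, 9, 8 and 5 and those of the neutrophil list 3, 2, 3 and 1, while over all genes 11747, 11834, 11878 and 11399 had a promoter peak. Test 2 was the lowest in each of these lists, and without it the groups kept apart in the macrophage and endothelial lists alone. The part of these cells in the values at Ltf, Lcn2 and Spp1 was not tested. Test 2 had the fewest peaks, and with equal peak numbers in all tumors the difference at Spdef was -1.90 percentage points and that at Mfge8 0.27, while division by the share of the genome in peaks gave -1.77 at Spdef.

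**Figure D5:**
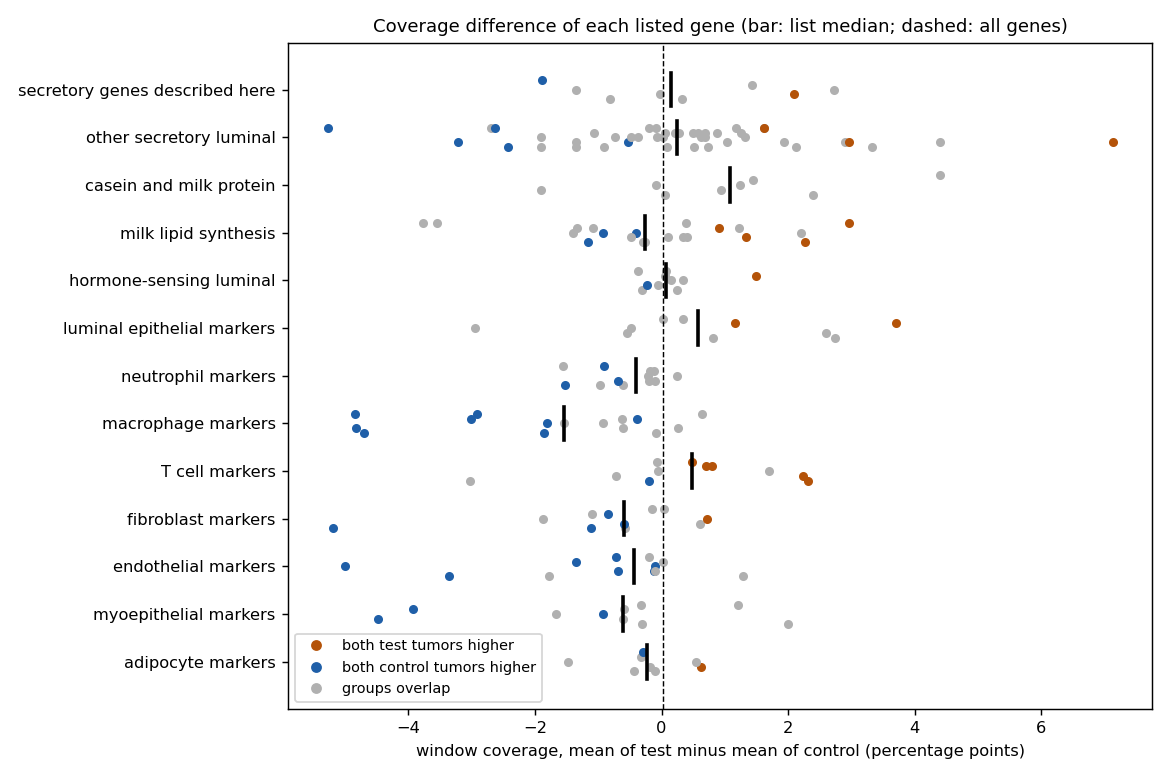
Difference in window coverage, mean of test minus mean of control tumors in percentage points, for each gene of each list (points), with a bar at the list median and a dashed line at the median of all genes. The 8 secretory genes scatter on both sides of 0, with Lcn2 and Spdef coloured, while 8 of 15 macrophage markers are coloured on the control side.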

How the data were processed

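The authors aligned reads to mm10 with BWA, and MACS2 was run on every tumor on its own, with the matched input as background, at a q-value of 0.01. Versions are not given in the sources used here. The deposited lists hold peak positions in base pairs, cleaned and merged, with a smallest gap of 201 bp, and no score, signal or depth. The matched inputs were not analysed here. Groups came from the genotype labels, and the tumor numbers only name tumors.

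Gene positions came from GENCODE M21. Window coverage was the percent of bases in peaks over the gene body plus 50 kb either side, promoters were 1 kb either side of the annotated start, and peaks of the 4 tumors that overlapped were joined into regions, present in a tumor with at least 1 bp. The genes and all lists were chosen with earlier results of these data known. The smallest p of an exact permutation test of 2 tumors against 2 is 1 in 3, so groups were called apart where they did not overlap, and no test was made. Named were the 8 genes, of the other secretory list the 3 nearest in coverage and the 3 with the largest difference among those with groups apart, and neighbours nearest to a control-only or test-only region; further neighbours and list genes were named after their values were seen. 1 listed T cell symbol had no match. Alternatives changed the window, the peaks used, the scaling and the tumors. Scripts were tested on simulated data and used Python 3.11.15, numpy 2.4.6 and pysam 0.24.0.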

Additional observations from a re-analysis of the deposited data

How the results depend on the processing

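The groups were not paired, since each tumor came from a separate mouse, and tumors were numbered within each group in accession order. No test was made. Of 56 differences at single genes recomputed from all 4 tumors under 7 alternatives, 47 kept their sign and 9 changed it. These were Spdef (0.22 percentage points with 100 kb either side), the sole one of a gene with groups apart, Mfge8 in 5 alternatives (up to 2.31), Ltf with peaks joined (-0.59) and Muc1 with 10 kb either side of the start and with peaks of at least 1 kb (0.020 and 1.46). With 1 tumor left out, 24 of 32 kept their sign. Control-only regions, 3 as reported, numbered 6 with 100 kb either side and 0 with 10 kb either side of the start, with peaks of at least 1 kb or with peaks within 1 kb joined, and 4 to 17 with 1 tumor left out. Test-only regions, also 3, numbered 1 with 10 kb either side of the start, 0 with peaks of at least 1 kb, 1 with peaks joined and 5 where at least 50% of a region had to be covered, and 6 to 14 with 1 tumor left out. The median difference, 0.15 percentage points, was 2.46 with 10 kb either side of the start (0.28 over all genes), -0.013 with peaks joined, and -1.06 to 1.83 with 1 tumor left out. Genes higher in both control tumors, 1 as reported, numbered 0 with 100 kb and 0 with peaks of at least 1 kb (12.9% and 9.90% of all genes), and 1 to 4 with 1 tumor left out, where 20.2% to 46.4% of all genes were. Genes higher in both test tumors, 1 as reported, numbered 2 with 20 kb (Lcn2 and Folr1, 18.04% of all genes), 2 with 10 kb either side of the start (Folr1 and Spp1, 20.9%), 2 with equal peak numbers (18.9%) and 2 with peaks joined (15.5%), and 1 to 4 with 1 tumor left out (29.2% to 47.8%). With coverage divided by the share of the genome in peaks the gene was Folr1 in place of Lcn2. At Lcn2 the groups then overlapped, with a difference of 2.87 percentage points. Counts rise with a tumor left out because fewer tumors have to keep apart. Depth, peak height and cell make-up are unknown, and 2 tumors a group limit every comparison.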
